A study of Homo sapiens with 21 samples.

Results

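The immediate-early genes described here are 39 genes whose transcripts rise within minutes to hours of a stimulus, picked by name from the count table of a human breast cancer cell line and followed across 7 treatment groups. All 39 are among the 28395 genes of the table, and all 39 passed the filter on low counts that left 16036 genes for testing. The list was drawn up because genes of this kind were seen to be high in the strongly treated groups of these same libraries. A further reason was that FOS and EGR1 differed there between the combinations and 1 µM THZ531. Those contrasts are therefore given below as descriptions without a test. The cells were Hs578T, an established breast cancer line of mesenchymal character and of the triple-negative class, which lacks oestrogen and progesterone receptors and HER2 amplification, and they were collected 8 h after treatment in 3 libraries per group, 21 in all. The groups were DMSO vehicle, THZ531 at 0.1 µM, lapatinib at 3.16 µM, nilotinib at 1 µM, lapatinib at 3.16 µM with THZ531 at 0.1 µM, nilotinib at 1 µM with THZ531 at 0.1 µM, and THZ531 alone at 1 µM. THZ531 is a covalent inhibitor of CDK12 and CDK13, kinases that act on elongating RNA polymerase II. Lapatinib inhibits the receptor kinases EGFR and HER2, and nilotinib inhibits ABL, KIT and PDGF receptors. The design asks how adding either kinase inhibitor to the low dose of THZ531 changes transcript levels relative to each drug alone and to the high dose. Every group came from the same single cell line, and the study describes its RNA samples as coming from 3 separate experiments, so the tests measure the spread between experiments in this line.

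Immediate-early genes need no new protein for their transcription. Transcription factors already present in the nucleus, such as SRF with its ELK partners and CREB, are switched on by MAP kinase and calcium or cAMP signalling, and paused polymerase at these mostly short genes is released. Many of the products are themselves transcription factors (FOS and JUN proteins of AP-1, EGR factors, NR4A receptors, KLF factors), and others are feedback inhibitors such as the DUSP phosphatases and the ZFP36 proteins that destroy AU-rich mRNAs. Their mRNAs are typically short-lived, so the level at a given hour follows recent synthesis and decay together. In bulk RNA, fewer cells of a kind and less RNA per cell cannot be told apart.

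The promoter stretches that carry the known control elements of these genes are shown here because FOS and EGR1 are the members on which the combinations and the high dose of THZ531 differed most. The 5 genes below are also those of the 30 members searched in which an exact match to the SRF element was found near the start. A RefSeq start was matched for 30 of the 39 members, and windows from 400 bases before to 50 bases after the start were read from GRCh38 for these and for 12271 tested genes in all. No window was used for ARC, CCN1, EGR3, FOSL1, GADD45A, IER3, KLF10, NR4A2 and ZFP36L2. In the sequences below, capitals mark CArG boxes, the binding element of SRF, and each line runs 5′ to 3′ on the strand of the gene. In the FOS stretch, capitals also mark the TATA box (TATAAA) close to the start, in the FOSB stretch the full cAMP response element (TGACGTCA), and in the second CCN2 stretch GGAATG, the core of the TEAD element.
FOS, chr14:75278503-75278802, plus strand: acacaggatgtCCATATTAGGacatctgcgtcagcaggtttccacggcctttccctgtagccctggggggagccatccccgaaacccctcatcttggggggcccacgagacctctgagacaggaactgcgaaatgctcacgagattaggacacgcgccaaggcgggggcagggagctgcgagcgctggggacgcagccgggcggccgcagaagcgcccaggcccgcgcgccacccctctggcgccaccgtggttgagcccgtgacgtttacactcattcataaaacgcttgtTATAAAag
EGR1 distal pair, chr5:138465094-138465133, plus strand: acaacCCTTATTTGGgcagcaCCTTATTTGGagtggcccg
EGR1 proximal pair, chr5:138465369-138465414, plus strand: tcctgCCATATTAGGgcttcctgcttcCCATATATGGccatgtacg
FOSB, chr19:45467666-45467740, plus strand: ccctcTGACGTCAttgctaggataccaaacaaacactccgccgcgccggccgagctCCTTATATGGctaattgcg
SRF, chr6:43171229-43171268, plus strand: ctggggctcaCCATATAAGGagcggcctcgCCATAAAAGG
CCN2 distal, chr6:131951733-131951762, minus strand: tacttCCTAAAAAGGatgtatgtcagtgga
CCN2 proximal, chr6:131951452-131951547, minus strand: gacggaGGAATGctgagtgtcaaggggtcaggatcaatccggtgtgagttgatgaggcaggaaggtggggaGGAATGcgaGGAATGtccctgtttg

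A CArG box lay in 5 of the 30 member windows (16.7%), namely FOS, FOSB, EGR1, SRF and CCN2, against 1.85% of the 12271 windows. EGR1 held 4 of them and SRF, the gene for the factor that binds this element, held 2. The full element TGACGTCA was found in DUSP1, FOSB, JUND and MAFF (13.3% of member windows against 3.53% of all), and its core TGACG, which the full element contains, in 20 members (66.7% against 40.2%). The letters TATAAA of the TATA box were present anywhere in the window in 11 members (36.7% against 11.3%). In MAFF, SGK1 and SRF the match began at -331, -96 and 14 bases from the start, away from where a TATA box lies. The AP-1 element TGANTCA was in CCN2 and FOSL2 (6.67% against 7.95%) and GGAATG in 6 members (20% against 18%), shares near those of all windows, with 3 copies in CCN2. All motifs were searched on both strands, and a match describes the letters of the window only.

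The libraries held between 97612207 and 112229052 counts. Levels are given as CPM, counts relative to library size as scaled by the trimmed mean of M values (TMM), as mean ± SD over the 3 libraries of a group, and differences as log2 fold changes with their standard error (SE) from edgeR fitted to all 16036 genes. All 6 markers of the mesenchymal line (VIM, FN1, SPARC, CD44, AXL and TWIST1) were at 1 CPM or more in every group. Of 7 luminal epithelial markers, ESR1, PGR, CDH1 and EPCAM were under 1 CPM in every group, while ERBB2, KRT8 and KRT18 were detected. The summed level of the mesenchymal markers was 12695 to 14731 CPM in libraries of DMSO and the single agents other than 1 µM THZ531 and 17860 to 20023 CPM in libraries of the combinations and 1 µM THZ531, and that of the luminal markers 139.2 to 161.5 and 184.6 to 220.1 CPM. The 5 blood and endothelial markers summed to 96.7 to 125 CPM and 130.3 to 181 CPM in the same sets of libraries. Nearly all of this was CD68, with means of 110.6 CPM in DMSO, 161.2 and 144.9 CPM in the lapatinib and nilotinib combinations and 158.3 CPM with 1 µM THZ531. PTPRC had means of 0.797 to 2.33 CPM over the groups. The means of PECAM1 and VWF stayed under 1 CPM, and the T cell gene CD3E was at 0 CPM in DMSO and both combinations. Single markers differed in direction: VIM had means of 6845 CPM in DMSO and 9807, 9612 and 9644 CPM in the lapatinib combination, the nilotinib combination and 1 µM THZ531, and KRT18 83.7 CPM and 155, 148 and 124 CPM, whereas TWIST1 had 27.9 CPM and 15.7, 12.9 and 11.1 CPM, ERBB2 37.5 CPM and 27.7, 27.7 and 31.6 CPM, and ESR1 0.364 CPM and 0.128, 0.152 and 0.179 CPM. The part of these shifts in the results below was not tested.

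Per kilobase of transcript, the members differed widely in DMSO-treated cells. CCN1 and CCN2, matricellular proteins and targets of YAP and TEAD, stood at 161.7 and 64 CPM per kilobase. FOSL1, the AP-1 subunit also called FRA1, stood at 146.5 CPM per kilobase, followed by ID3 at 109 and JUN at 76.9. At the other end, FOS stood at 0.638, FOSB at 0.637, IER3 at 0.2, EGR3 at 0.144 and EGR2 at 0.11 CPM per kilobase. The AP-1 mRNA of vehicle-treated cells was mainly FOSL1, JUN, JUND (28.4) and FOSL2 (27.9), and FOS mRNA was scarce. With 1 µM THZ531, FOS stood at 25.8 CPM per kilobase, below FOSL1 at 37.8 and JUNB at 115.

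The members shared a compact structure, which the choice of genes did not use directly. The choice did use the rise in the strong treatments, where short genes were more often higher. With lapatinib and THZ531, 47.1% of protein-coding genes under 10000 bases were higher, against 27.3% of those of 100000 bases or more. The median genomic length of the members was 4084 bases (1222 to 148857) against 31226 bases for the 13745 tested protein-coding genes. Of the members, 33 of 39 (84.6%) were under 10000 bases against 20.6% of those genes. The canonical transcript had at most 3 exons in 21 members (53.8%) against 13.6%. At least 3 copies of AUUUA, the core of AU-rich decay elements, lay in the 3′ untranslated region of 26 members (66.7%) against 46.5% of protein-coding genes, at median region lengths of 1214 and 1300 bases. IER5 and NR4A3 had the most copies, 10 each, FOSL2 had 9, and ARC, GADD45B and IER2 had none. The long exceptions were SGK1 (148857 bases), NR4A3 (45007), NR4A1 (36672), FOSL2 (24460), MAFF (14518) and SRF (10238). Reads were counted without strand, and ID3, FOSL2, IER3, CCN2, SGK1, EGR3, NR4A1, BTG1, JUNB and MAFF overlap other annotated genes, so their counts may include reads of those neighbours.

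Among the AP-1 subunits, FOS (gene ID 2353, chr14:75278828-75282230) had the widest range of the 39 genes. Its level was 1.34, 1.42 and 1.27 CPM in the DMSO libraries (1.34 ± 0.0781), 1.83 ± 0.28 CPM with 0.1 µM THZ531, 1.14 ± 0.108 CPM with lapatinib and 0.928 ± 0.126 CPM with nilotinib. With lapatinib and THZ531 it was 11.4, 15.7 and 11.5 CPM, with nilotinib and THZ531 11.0, 10.4 and 8.68 CPM, and with 1 µM THZ531 52.1, 75.4 and 35.5 CPM. No library of the 3 strong treatments overlapped DMSO, and no library of 1 µM THZ531 overlapped a combination, although the 3 high-dose libraries differed among themselves more than those of any other group. The log2 fold change against DMSO was 3.26 ± 0.22 (SE), 2.90 ± 0.22 and 5.34 ± 0.23, that is 9.57-, 7.45- and 40.4-fold.

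JUNB (gene ID 3726), a JUN protein that activates AP-1 sites more weakly than JUN, was at 34.2, 37.0 and 34.9 CPM in DMSO. It was at 263, 271 and 267 CPM with lapatinib and THZ531, at 233, 222 and 221 CPM with nilotinib and THZ531, and at 236, 199.8 and 195 CPM with 1 µM THZ531. All 9 of these libraries lay far above DMSO, by 7.55-, 6.37- and 5.95-fold, and here the high dose was not the highest. FOSB had a mean of 2.40 CPM in DMSO and 8.81, 5.52 and 11.6 CPM in the 3 strong treatments. The 3 strong treatments thus stood in the same order as for FOS, and at 1 µM THZ531 FOSB was well below the 54.3 CPM of FOS.

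FOSL1 and FOSL2, the FRA subunits that were abundant in DMSO, were lower in the strong treatments. FOSL1 (gene ID 8061) was at 231, 289 and 228 CPM in DMSO, at 54.7, 86.2 and 72.7 CPM with lapatinib and THZ531, at 60.9, 84.6 and 88.4 CPM with nilotinib and THZ531, and at 72.9, 52.5 and 67.4 CPM with 1 µM THZ531. Its log2 fold changes were -1.81, -1.68 and -1.96 (each SE 0.16), with no overlap between any treated library and DMSO. FOSL2 was at 184, 199.9 and 178 CPM in DMSO, 108, 156 and 132 CPM in the lapatinib combination, 105, 138 and 155 CPM in the nilotinib combination and 91.0, 50.6 and 87.4 CPM at the high dose, with log2 fold changes of -0.50, -0.50 and -1.29 (each SE 0.17). JUN itself had a mean of 250.5 CPM in DMSO, 241.5 and 269 CPM in the combinations and 143.9 CPM with 1 µM THZ531. JUND differed from DMSO by 0.59, 0.17 and -0.35 on the log2 scale, the first value turning to -0.09 with scaling to mitochondrial mRNAs. MAFF, a small MAF protein without an activation domain, differed by 1.24, 1.28 and 1.18.

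**Figure D1:**
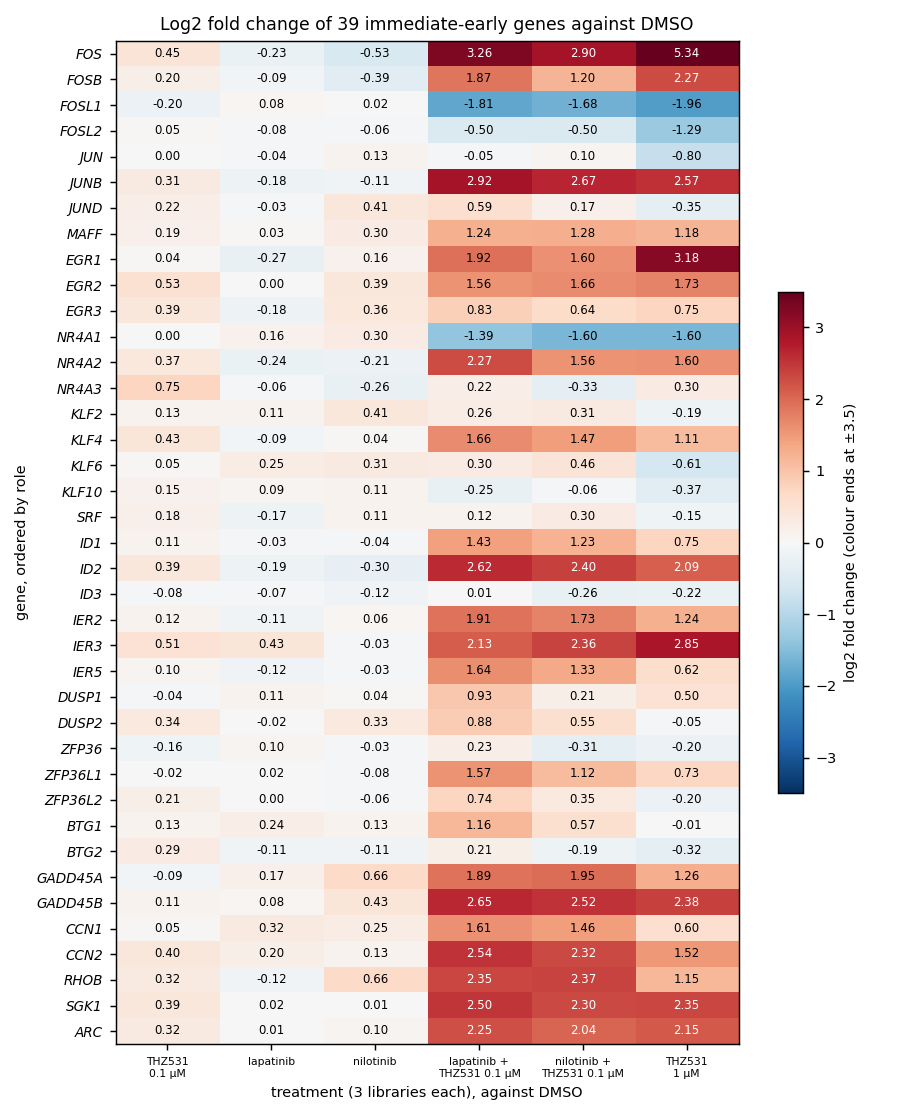
Log2 fold change of each of the 39 genes (rows, ordered by role) against DMSO in the 6 treatments (columns, 3 libraries each), from the edgeR fit, with red for higher and blue for lower. The 3 right-hand columns hold nearly all strong colours, from 5.34 for FOS to -1.96 for FOSL1, both with 1 µM THZ531.

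EGR1 (gene ID 1958, chr5:138465479-138469303), a zinc-finger factor of the growth factor response, was at 5.35, 7.06 and 4.79 CPM in DMSO. With 0.1 µM THZ531, lapatinib and nilotinib alone its means were 5.90, 4.77 and 6.41 CPM. It was at 15.6, 30.9 and 18.5 CPM with lapatinib and THZ531, at 16.5, 18.6 and 17.1 CPM with nilotinib and THZ531, and at 62.0, 65.5 and 28.3 CPM with 1 µM THZ531. The 2 groups of combination libraries lay above DMSO in every library, and replicate 2 of the lapatinib combination (30.9 CPM) lay above replicate 3 of the high dose (28.3 CPM), so those groups overlapped. The log2 fold changes against DMSO were 1.92 ± 0.25, 1.60 ± 0.25 and 3.18 ± 0.26 (SE). EGR2 and EGR3, at 0.329 and 0.649 CPM in DMSO, were also higher in the 3 strong treatments, with log2 fold changes of 1.56, 1.66 and 1.73 for EGR2 and of 0.83, 0.64 and 0.75 for EGR3, and neither showed the step between combinations and high dose seen for EGR1.

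The NR4A orphan nuclear receptors, which act without a ligand, went 3 ways. NR4A1 (NUR77) was at 4.53, 5.98 and 5.05 CPM in DMSO, at 1.70, 2.18 and 2.05 CPM in the lapatinib combination, at 1.42, 1.61 and 2.1 CPM in the nilotinib combination and at 2.03, 1.27 and 1.83 CPM with 1 µM THZ531. The treated libraries all lay below DMSO, with log2 fold changes of -1.39, -1.60 and -1.60. NR4A2 (NURR1) had a mean of 1.32 CPM in DMSO and of 6.35, 3.88 and 3.99 CPM in the strong treatments (log2 fold changes of 2.27, 1.56 and 1.60). NR4A3 (NOR1), with a mean of 2.44 CPM in DMSO, was at 2.15, 3.85 and 2.53 CPM, 1.75, 2.14 and 1.96 CPM, and 2.92, 3.70 and 2.42 CPM there and was the only member past the threshold in none of the 3 strong treatments.

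**Figure D2:**
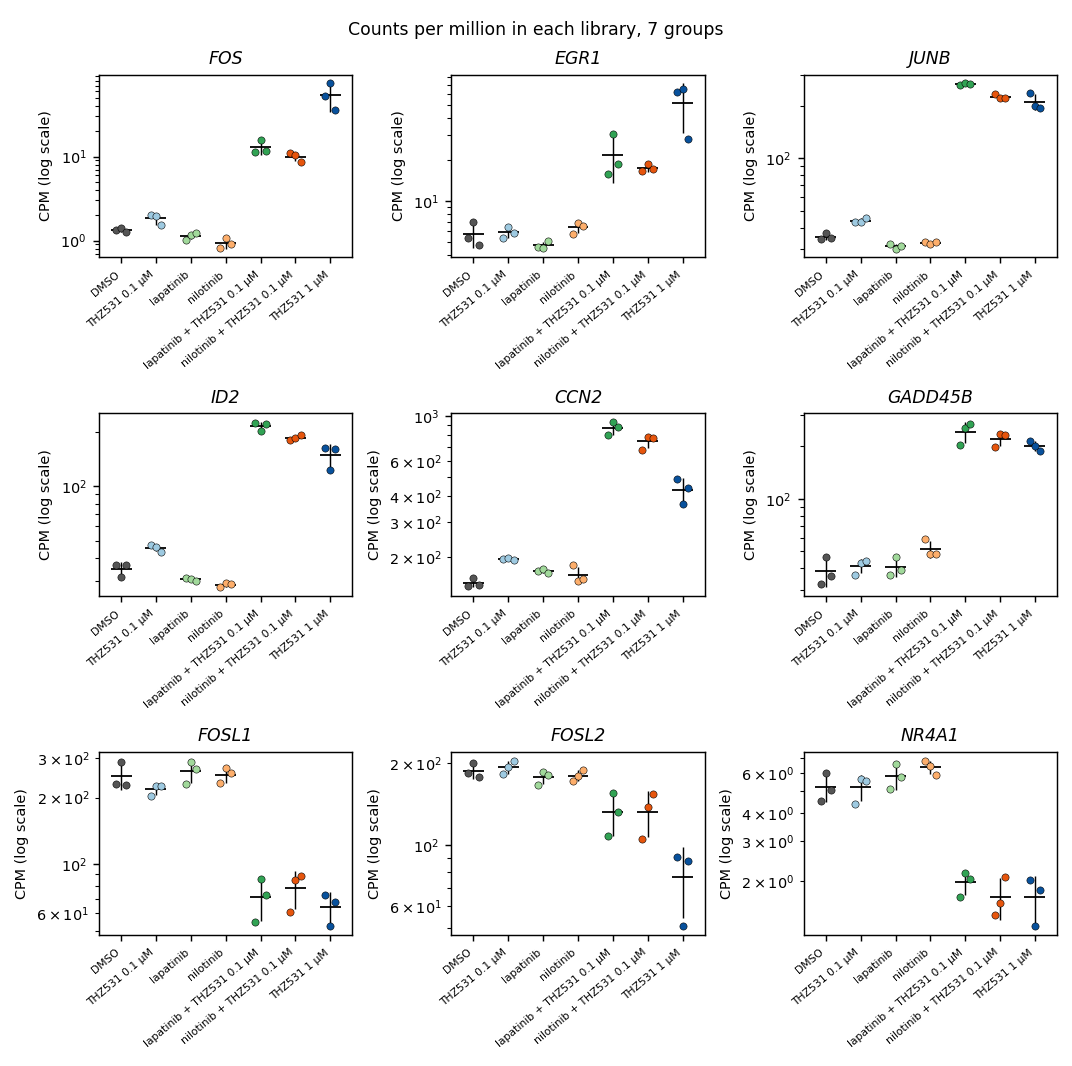
Level of 9 genes in CPM on a log scale (vertical axes) in each library (points) of the 7 groups, with the group mean (horizontal bar) and SD (vertical bar, n = 3). FOS and EGR1 were highest with 1 µM THZ531, JUNB, ID2, CCN2 and GADD45B were highest with lapatinib and THZ531, and FOSL1, FOSL2 and NR4A1 were low in all 3 strong treatments.

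Of the zinc-finger factors of the KLF family and SRF, KLF4 stood out. It was at 17.3, 18.1 and 18.9 CPM in DMSO, at 52.4, 59.0 and 59.9 CPM in the lapatinib combination, at 46.8, 52.6 and 51.0 CPM in the nilotinib combination and at 43.5, 33.9 and 40 CPM at the high dose, above DMSO in all 9 treated libraries. KLF6 was at 156 CPM in DMSO, 193 and 215.5 CPM in the combinations and 102.7 CPM with 1 µM THZ531, log2 fold changes of 0.30, 0.46 and -0.61, and its values in the combinations turned to -0.38 and -0.16 with mitochondrial scaling. KLF2 (0.26, 0.31 and -0.19; with mitochondrial scaling -0.41 and -0.30 in the combinations) and KLF10 (-0.25, -0.06 and -0.37) lay close to DMSO. SRF, which binds the CArG boxes printed above, differed by 0.12, 0.30 and -0.15, the second value turning to -0.32 with mitochondrial scaling.

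ID proteins bind helix-loop-helix factors and keep them from DNA. ID2 was at 36.5, 31.6 and 36.7 CPM in DMSO and at 223, 200.5 and 220.4 CPM with lapatinib and THZ531, 179, 183 and 191 CPM with nilotinib and THZ531 and 163, 122 and 160.5 CPM with 1 µM THZ531, in no library near DMSO. ID1 differed by 1.43, 1.23 and 0.75 on the log2 scale, whereas the abundant ID3 (104 CPM in DMSO) differed by 0.01, -0.26 and -0.22. All 3 IER genes were higher. IER2 had a mean of 60.7 CPM in DMSO and 228, 202 and 143 CPM in the strong treatments, and IER5 had 35.9 CPM and 111.5, 90.4 and 55.1 CPM. IER3, a scarce transcript here, was at 0.185, 0.337 and 0.221 CPM in DMSO (23 to 39 counts), and at 1.37, 0.777 and 1.11 CPM, 1.15, 1.16 and 1.51 CPM, and 1.85, 1.91 and 1.59 CPM in the lapatinib combination, the nilotinib combination and the high dose.

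Among the feedback genes, DUSP1, a phosphatase that switches off MAP kinases, was at 15.4, 15.2 and 15 CPM in DMSO. It was at 28.2, 28.8 and 29.7 CPM with lapatinib and THZ531, at 17.5, 18.2 and 17.1 CPM with nilotinib and THZ531 and at 23.0, 20.4 and 21.2 CPM with 1 µM THZ531, so the 3 treatments gave 3 separate levels. Its log2 fold changes were 0.93, 0.21 and 0.50, and those of the nilotinib combination and the high dose turned to -0.41 and -0.05 with mitochondrial scaling. DUSP2 was scarce (0.713 CPM in DMSO) and differed by 0.88, 0.55 and -0.05, the second turning to -0.06. ZFP36L1, which carries AU-rich mRNAs to decay, had a mean of 134 CPM in DMSO and 396, 289 and 222 CPM in the strong treatments. Its relatives differed less, ZFP36L2 by 0.74, 0.35 (-0.28 with mitochondrial scaling) and -0.20 and ZFP36 by 0.23, -0.31 and -0.20. BTG1, an adaptor of the deadenylase complex, was at 54.9, 48.3 and 52.3 CPM in DMSO, 110.2, 116 and 121 CPM with lapatinib and THZ531, 68.5, 79.6 and 82.4 CPM with nilotinib and THZ531 and 57.8, 37.8 and 59.0 CPM at the high dose, so that only the last overlapped DMSO. Its log2 fold change in the nilotinib combination, 0.57, turned to -0.06 with mitochondrial scaling. BTG2 stayed between 2.51 and 3.81 CPM as a group mean.

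GADD45A and GADD45B, small stress proteins that bind MAP kinase kinase kinases and PCNA, were high in every strong treatment. GADD45B was at 32.4, 46.6 and 36.3 CPM in DMSO, at 203, 256 and 267 CPM with lapatinib and THZ531, at 197, 236 and 230.5 CPM with nilotinib and THZ531 and at 213, 200.5 and 188 CPM at the high dose, with no overlap with DMSO. GADD45A had a mean of 43.0 CPM in DMSO and was at 148, 171 and 158 CPM, at 155, 169.5 and 173 CPM, and at 119.8, 98.8 and 90.2 CPM in the same order of treatments. The 5 effector genes were all higher as well. CCN2 was at 145, 158 and 146 CPM in DMSO, at 802, 929.9 and 879.5 CPM in the lapatinib combination, at 681, 788 and 774 CPM in the nilotinib combination and at 488, 365 and 438 CPM at the high dose. CCN1 had means of 368 CPM in DMSO and 1122, 1012 and 558 CPM. These matricellular genes had their highest levels in the combinations. SGK1, a kinase of the AGC family, had a mean of 42.3 CPM in DMSO and was at 247, 234 and 238 CPM, at 214, 207 and 204 CPM, and at 232, 203 and 212 CPM. RHOB, a short-lived small GTPase, had a mean of 36.6 CPM in DMSO and was at 173, 189 and 198 CPM and at 176, 190.5 and 198 CPM in the combinations, above its 91.3, 65.2 and 87.2 CPM at the high dose. ARC, a synaptic capsid-like protein, had means of 3.22 CPM in DMSO and 15.3, 13.3 and 14.3 CPM.

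In counts, 29 members were higher (adjusted p under 0.05) with lapatinib and THZ531 and 4 lower, where 34.3% and 37.8% of the 16036 tested genes were higher and lower. With nilotinib and THZ531 the counts were 29 and 5 (background 33.7% and 37.3%), and with 1 µM THZ531 23 and 8 (background 33.1% and 36.8%). Since the list was chosen for being high here, nothing is read from these counts. Scaling to mitochondrial mRNAs, which moved the median of all genes from -0.01 to -0.69, -0.63 and -0.55 on the log2 scale, gave 22 higher and 12 lower, 21 and 12, and 17 and 15 members. Scaling by library size alone gave 21 and 8 in the nilotinib combination and 22 and 13 at the high dose. In all 3 treatments 23 members were higher, and FOSL1, FOSL2 and NR4A1 were lower, where 27.2% and 30.8% of tested genes were. BTG1, DUSP2, KLF2 and ZFP36L2 were higher in both combinations only, KLF6 was higher in the combinations and lower at the high dose, and JUN and BTG2 were lower at the high dose only. The shares of all tested genes with these mixed patterns were not computed.

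The median of all short genes lay above 0 in the strong treatments, and the median of the members lay above that of the class. The 2826 tested protein-coding genes under 10000 bases had median log2 fold changes of 0.34 in the lapatinib combination, 0.23 in the nilotinib combination and 0.22 at the high dose, and 47.1%, 44.3% and 43.2% of them were higher. The 33 members under 10000 bases had medians of 1.57, 1.23 and 0.75. Genes of 100000 bases or more had medians of -0.16, -0.11 and -0.17, and SGK1, the only member of that length, had 2.50, 2.30 and 2.35. These values describe the list beside its length class and come with no test.

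The combinations and the high dose differed in which members were highest. Against 1 µM THZ531, 24 members were higher and 3 lower with lapatinib and THZ531 (background 12.8% and 16.1%), and 19 were higher and 5 lower with nilotinib and THZ531 (background 11.2% and 13%). FOS and EGR1, the genes that the choice rested on, were lower in both combinations, by log2 fold changes of -2.08 ± 0.19 and -2.44 ± 0.20 (SE) for FOS and -1.26 ± 0.24 and -1.58 ± 0.25 for EGR1. IER3 was lower with lapatinib and THZ531 (-0.72 ± 0.21), and FOSB (-1.07 ± 0.24) and NR4A3 (-0.63 ± 0.18) were lower with nilotinib and THZ531. In the other direction, 17 members were higher in both combinations, among them RHOB (1.20 and 1.21), KLF6 (0.91 and 1.07), CCN2 (1.02 and 0.80), CCN1 (1.01 and 0.86), BTG1 (1.17 and 0.58), IER5 (1.02 and 0.72), JUN (0.75 and 0.90) and FOSL2 (0.79 and 0.80). The share of all tested genes higher in both was not computed, so nothing is read from this count. DUSP1 was higher in the lapatinib combination (0.42) and lower in the nilotinib combination (-0.29). ARC, EGR2, EGR3, FOSL1, GADD45B, MAFF, NR4A1 and SGK1 passed the threshold in neither, with log2 fold changes between -0.17 and 0.28. Both comparisons share the 3 high-dose libraries. In fits of only the groups compared the counts were 21 higher and 2 lower for the lapatinib combination and 11 and 2 for the nilotinib combination, and with mitochondrial scaling 18 and 3, and 12 and 4.

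**Figure D3:**
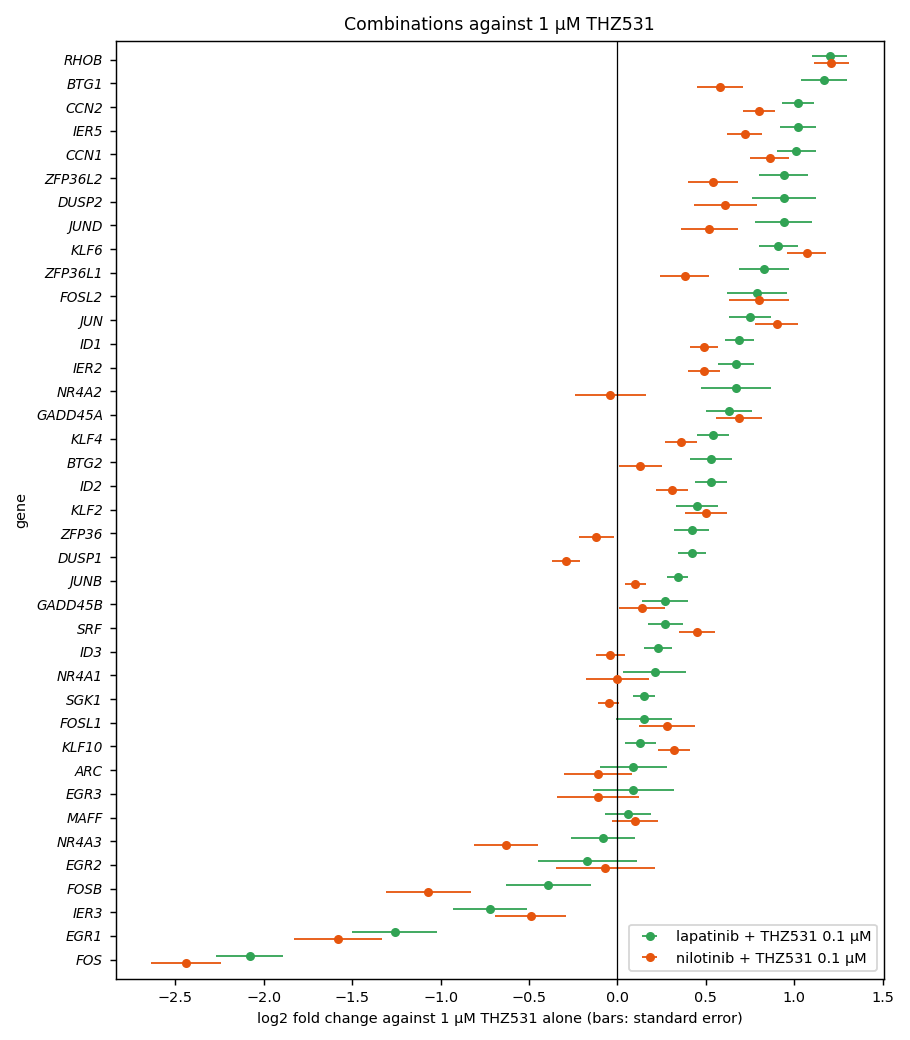
Log2 fold change of each of the 39 genes (rows) in the lapatinib combination (green) and the nilotinib combination (orange) against 1 µM THZ531 alone, with bars for the SE. FOS lies at -2.08 and -2.44 and RHOB at 1.20 and 1.21, the ends of the range.

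Whether the low dose of THZ531 alone touched these genes was tested, since the choice of genes did not use that group. The DMSO libraries, however, were also the baseline of contrasts that the choice used. This test, like those of lapatinib and nilotinib against DMSO below, is therefore not fully separate from the choice. At 0.1 µM, 6 members (15.4%) rose and 0 fell by the edgeR quasi-likelihood test with Benjamini-Hochberg adjustment, while 1.78% of tested genes rose and 4.31% fell. The median log2 fold change of the 39 genes was 0.18 against 0.01 for all tested genes. At an unadjusted p under 0.05, 8 members were higher (7.84% of tested genes) and 0 lower (11.4%), and DESeq2 called 7 and 0, adding RHOB (edgeR adjusted p = 0.0613). In 15 members all 3 treated libraries lay above all 3 DMSO libraries, where 16.5% of tested genes did so.

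SGK1 went from 42.7, 41.6 and 42.6 CPM in DMSO to 58.7, 56.0 and 52.0 CPM with 0.1 µM THZ531, a log2 fold change of 0.39 ± 0.06 (SE; edgeR adjusted p = 0.000544). KLF4 went from 17.3, 18.1 and 18.9 CPM to 24.2, 24.4 and 24.6 CPM (0.43 ± 0.09, edgeR adjusted p = 0.00588), and JUNB from 34.2, 37.0 and 34.9 CPM to 43.0, 42.8 and 45.6 CPM (0.31 ± 0.06, edgeR adjusted p = 0.0063). In all 3 genes the libraries of the groups were apart. CCN2 went from 145, 158 and 146 CPM to 198, 199 and 194 CPM (0.40 ± 0.09, edgeR adjusted p = 0.0111). ID2 went from 36.5, 31.6 and 36.7 CPM to 47.4, 46.2 and 43.4 CPM (0.39 ± 0.09, edgeR adjusted p = 0.0114). NR4A3 had the largest rise, from 2.40, 2.50 and 2.43 CPM to 4.35, 3.90 and 4.10 CPM (0.75 ± 0.18, edgeR adjusted p = 0.0135). It was also the only member past the threshold in none of the strong treatments, where its log2 fold changes were 0.22, -0.33 and 0.30. FOS, at 2.02, 1.97 and 1.51 CPM (0.45 ± 0.22, edgeR adjusted p = 0.283), and EGR1 (0.04, edgeR adjusted p = 0.945) did not pass. Scaling to mitochondrial mRNAs left NR4A3 as the only call (adjusted p between 0.0854 and 0.297 for the others). The call for CCN2 was lost without DMSO replicate 1 (edgeR adjusted p = 0.0517), that for ID2 without DMSO replicate 2 or THZ531 replicate 1 (up to 0.0747), and that for NR4A3 without DMSO replicate 1 or THZ531 replicate 1 (up to 0.0596).

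**Figure D4:**
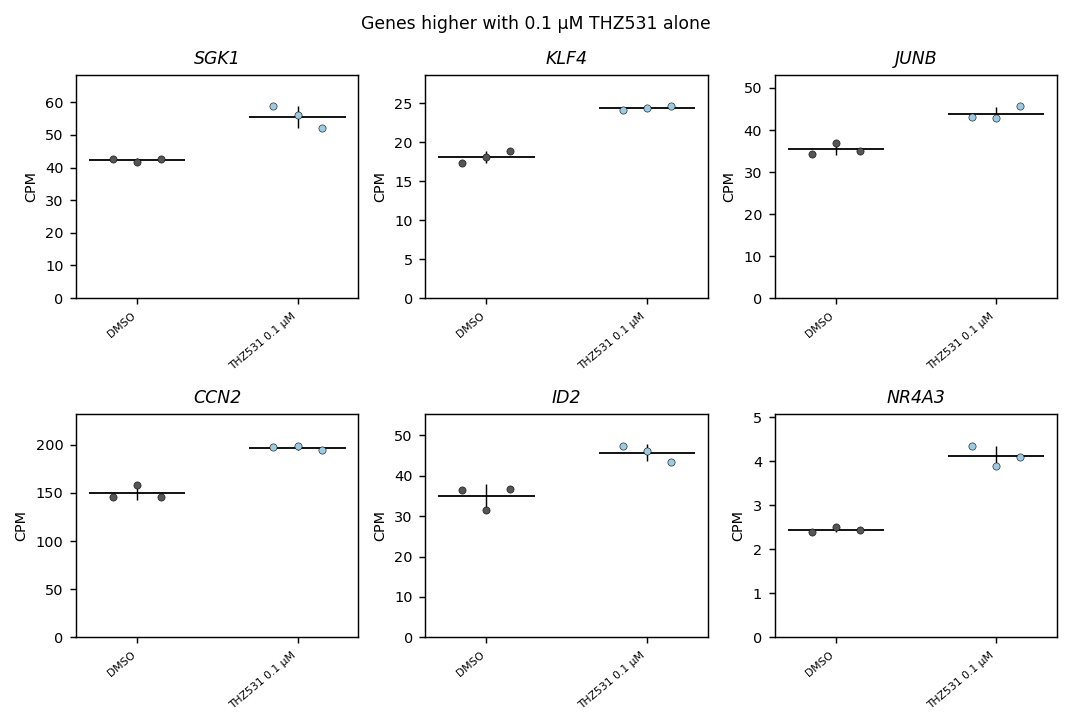
Level in CPM (vertical axes from 0) in each library (points) of DMSO and 0.1 µM THZ531 for the 6 genes that rose, with the group mean (horizontal bar) and SD (vertical bar, n = 3). The treated libraries lie above the DMSO libraries in each panel, for example at 3.90 to 4.35 against 2.40 to 2.50 CPM for NR4A3.

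Lapatinib alone changed 0 members in either direction by edgeR, where 0.256% of tested genes rose and 0.0561% fell. At an unadjusted p under 0.05, 3 members were higher and 2 lower (3.84% and 3.32% of tested genes), and DESeq2 also called 0. Log2 fold changes ran from -0.27 (EGR1) to 0.43 (IER3), with a median of -0.02. Nilotinib alone raised 2 members and lowered 0, beside 0.243% and 0.0998% of tested genes. RHOB went from 36.4, 36.2 and 37.1 CPM to 65.0, 53.3 and 54.6 CPM (0.66 ± 0.10, edgeR adjusted p = 0.00532), with no overlap. GADD45A went from 39.9, 48.0 and 41.2 CPM to 86.4, 59.2 and 58.3 CPM (0.66 ± 0.13, edgeR adjusted p = 0.0266), and nilotinib replicate 1 stood above the other 2. The call for GADD45A was lost without that library, DMSO replicate 1 or DMSO replicate 3 (edgeR adjusted p up to 0.162), and both calls were lost with mitochondrial scaling (0.189 and 0.165). At an unadjusted p under 0.05, 8 members were higher and 2 lower with nilotinib (5.15% and 4.51% of tested genes). DESeq2 called 4 and 0, adding GADD45B and KLF2.

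Lapatinib and nilotinib alone differed in RHOB, which was at 34.9, 33.6 and 32.3 CPM with lapatinib, lower than with nilotinib by a log2 fold change of -0.78 ± 0.10 (edgeR adjusted p = 0.000432). This held without each of the 21 libraries (adjusted p up to 0.00581). No other member passed, beside 0.355% of tested genes higher and 0.549% lower with lapatinib, and at an unadjusted p under 0.05 the counts were 0 and 7 (5.26% and 6.05% of tested genes). DESeq2 called 0 higher and 2 lower, adding GADD45A.

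When THZ531 at 0.1 µM was present, 3 members were higher with lapatinib than with nilotinib and 0 lower, beside 0.73% and 0.736% of tested genes. The choice of genes did not rest on this contrast, but the libraries of both combinations took part in it. The test is therefore not separate from the choice. DUSP1, at 28.2, 28.8 and 29.7 CPM against 17.5, 18.2 and 17.1 CPM, had the clearest difference (0.72 ± 0.08, edgeR adjusted p = 9.17e-05) and kept it without each library in turn (adjusted p up to 0.00136). ZFP36 was at 21.7, 27.2 and 26.1 CPM against 14.0, 17.9 and 19.8 CPM (0.54 ± 0.10, edgeR adjusted p = 0.0115), and BTG1 at 110.2, 116 and 121 CPM against 68.5, 79.6 and 82.4 CPM (0.59 ± 0.13, edgeR adjusted p = 0.0236). ZFP36 and BTG1 both take part in mRNA decay, and DUSP1 in dephosphorylating MAP kinases. At an unadjusted p under 0.05, 18 members were higher with lapatinib and THZ531 and 0 lower (6.21% and 6.3% of tested genes), and in 16 all libraries of the lapatinib combination lay above all of the nilotinib combination (7.58% of tested genes). The median log2 fold change was 0.20 against 0.01 for all genes. DESeq2 called 7 higher and 0 lower, adding JUNB, NR4A2, ZFP36L1 and BTG2.

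The calls for ZFP36 and BTG1 were not stable to leaving out a library, although the log2 fold changes stayed between 0.41 and 0.65 for ZFP36 and between 0.51 and 0.64 for BTG1. ZFP36 was lost without lapatinib combination replicate 2 or 3 or nilotinib combination replicate 1 (edgeR adjusted p up to 0.0703), and BTG1 without lapatinib combination replicate 2 or 3 or any nilotinib combination library (up to 0.118). Leaving out 1 library gave 1 to 8 members higher, the most without 1 µM THZ531 replicate 2, 5 without lapatinib combination replicate 1, and 1 without lapatinib combination replicate 2 or 3 or nilotinib combination replicate 1.

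**Figure D5:**
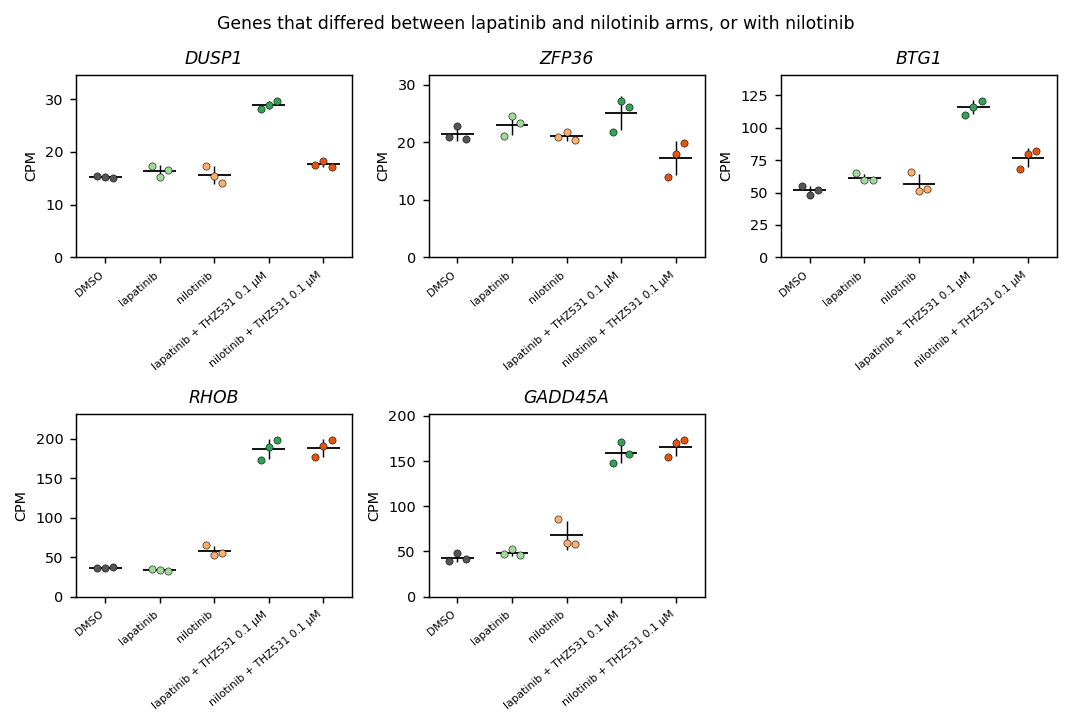
Level in CPM (vertical axes from 0) in each library (points) of DMSO, each kinase inhibitor and each combination, with the group mean (horizontal bar) and SD (vertical bar, n = 3). DUSP1, ZFP36 and BTG1 were higher in the lapatinib than in the nilotinib combination, and RHOB and GADD45A were higher with nilotinib than in DMSO.

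For several members the log2 fold change of a combination was far from the sum of those of its parts. For FOS the log2 fold changes of 0.1 µM THZ531 and lapatinib added to 0.21 and that of the combination was 3.26, and with nilotinib the sum was -0.08 and the combination 2.90. For JUNB the sums were 0.13 and 0.20 beside 2.92 and 2.67, for GADD45B 0.19 and 0.54 beside 2.65 and 2.52, and for FOSL1 -0.12 and -0.17 beside -1.81 and -1.68. RHOB, the member that rose with nilotinib alone, had sums of 0.20 and 0.98 beside 2.35 and 2.37. JUN (-0.04 and 0.13 beside -0.05 and 0.10) and KLF6 (0.31 and 0.37 beside 0.30 and 0.46) stayed near their sums. These differences include the contrasts that chose the genes and were not tested. The same sums were not taken over all tested genes, so nothing particular to the members is read from them. Of all tested genes, 34.3% were higher and 37.8% lower in the lapatinib combination. With lapatinib alone the shares were 0.256% and 0.0561%, and at 0.1 µM THZ531 1.78% and 4.31%.

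A further list held 36 other genes of the primary response, of which 33 passed the filter. It was drawn up with earlier results of these data known, so nothing is read from its counts in the strong treatments. In the lapatinib combination 22 were higher and 8 lower, in the nilotinib combination 18 and 9, and with 1 µM THZ531 15 and 13. As shares of the list these were 66.7% and 24.2%, 54.5% and 27.3%, and 45.5% and 39.4%. Of all tested genes 34.3% and 37.8%, 33.7% and 37.3%, and 33.1% and 36.8% were higher and lower. The median log2 fold changes of the list were 0.78, 0.46 and 0.07. The genes furthest above DMSO with lapatinib and THZ531 were SIK1 (2.84 ± 0.17), a kinase that restrains CREB coactivators, ATF3 (2.70 ± 0.15), a stress-induced bZIP factor, and IER5L (2.66 ± 0.10). Those furthest below were LIF (-2.38 ± 0.16), a cytokine of the IL-6 family, GEM (-1.71 ± 0.11), a small GTPase, and AMOTL2 (-1.26 ± 0.15), a junction protein and target of YAP. With lapatinib alone, EDN1, the precursor of endothelin, fell from 9.10, 8.34 and 7.90 to 5.56, 5.80 and 5.11 CPM (-0.62 ± 0.08, edgeR adjusted p = 0.00109). No other gene of the list passed the threshold there, where 0.256% of tested genes rose and 0.0561% fell. With nilotinib alone TRIB1, a pseudokinase, rose from 29.5, 33.9 and 30.5 to 46.2, 43.0 and 43.4 CPM (0.50 ± 0.10, edgeR adjusted p = 0.0323), where 0.243% of tested genes rose and 0.0998% fell. At 0.1 µM THZ531, 4 of the 33 rose (ATF3, EDN1, HES1 and TRIB1) and 0 fell, beside 1.78% and 4.31% of tested genes. At an unadjusted p under 0.05 the counts were 8 and 1 (7.84% and 11.4% of tested genes). Between the combinations, ATF3, CEBPD, CITED2, PER1 and PTGS2, named here after their values were seen, were higher with lapatinib, and 0 were lower. Of all tested genes 0.73% and 0.736% were higher and lower. At an unadjusted p under 0.05 the counts were 14 and 2 (6.21% and 6.3% of tested genes).

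The regulators that act on immediate-early promoters, 25 genes all tested, formed another list. Earlier results of these data were known when it was drawn up too, so its counts in the strong treatments are descriptions only. In the lapatinib combination 5 were higher and 15 lower, in the nilotinib combination 7 and 16, and with 1 µM THZ531 6 and 16. As shares of the list these were 20% and 60%, 28% and 64%, and 24% and 64%. Of all tested genes 34.3% and 37.8%, 33.7% and 37.3%, and 33.1% and 36.8% were higher and lower. The median log2 fold changes of the list were -0.37, -0.40 and -0.35. CREB1, which binds the TGACGTCA element, was at 55.7, 48.8 and 48.3 CPM in DMSO, 3.03, 3.32 and 3.63 CPM in the lapatinib combination, 4.36, 3.64 and 4.33 CPM in the nilotinib combination and 8.66, 5.57 and 8.01 CPM at the high dose, in all 9 treated libraries far below DMSO. MRTFB, an actin-regulated coactivator of SRF, was lower by log2 fold changes of -2.03, -1.81 and -2.07, and CRTC3, a CREB coactivator, by -1.88, -1.70 and -1.75. MAPK3, a MAP kinase, was higher (0.66, 0.64 and 0.73), and CREBBP, an acetyltransferase, was higher in the combinations (0.77 and 0.76) with libraries that overlapped DMSO, and differed by -0.02 at the high dose. Of the single agents, 0.1 µM THZ531 raised 1 of the 25, RPS6KA5, a kinase that acts downstream of MAP kinases (0.38 ± 0.11, edgeR adjusted p = 0.0495). Of all tested genes, 1.78% rose and 4.31% fell there. At an unadjusted p under 0.05, 4 of the 25 were higher and 0 lower (7.84% and 11.4% of tested genes). Lapatinib and nilotinib changed 0 of the 25. They raised 0.256% and 0.243% of all tested genes and lowered 0.0561% and 0.0998%. At an unadjusted p under 0.05, lapatinib changed 0 of the 25 and nilotinib 2. At that threshold 3.84% and 3.32% of tested genes were higher and lower with lapatinib, and 5.15% and 4.51% with nilotinib. For lapatinib against nilotinib alone, 0 regulators were higher and 1 lower (0.355% and 0.549% of tested genes). Between the combinations, 0 were higher with lapatinib and 1 lower (0.73% and 0.736% of tested genes). At an unadjusted p under 0.05, 1 was higher and 7 lower between the combinations (6.21% and 6.3% of tested genes). These are mRNA levels, and protein amount or activity was not measured in these libraries.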

How the data were processed

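The deposited table holds raw read counts per gene, which per the labels and the study's methods the authors made from unstranded poly(A) RNA libraries sequenced as 100-base read pairs (DNBSEQ), aligned to GRCh38 with HISAT2 2.1.0 and counted with featureCounts; the authors tested them with DESeq2. The gene annotation, and whether a pair counted once, are not given in the sources used here; 61.6% to 66.4% of counts above 0 were even, and halved counts were an alternative. Of 28395 gene IDs, 27745 matched a RefSeq symbol and held 99.978% of counts.

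Libraries were grouped by treatment label (7 groups of 3). Totals were 97612207 to 112229052 counts, and replicates differed beyond sampling noise. Counts were tested in edgeR 4.0.16 (R 4.3.3) with filterByExpr, TMM scaling, one quasi-likelihood fit over 21 libraries and Benjamini-Hochberg adjustment over 16036 genes at 0.05. On simulated data for 3 against 3 libraries and 14444 genes, edgeR found 177 of 200 changed genes, 46 of 66 at a log2 change of 0.5, with 9 false calls.

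The members and lists were chosen with earlier results of these data known. So fit results for the contrasts the choice used are descriptions, with no p-value and with the share of all genes called. These contrasts were the combinations and 1 µM THZ531 against DMSO, and the combinations against 1 µM THZ531. The single agents against DMSO and lapatinib against nilotinib, alone or with THZ531, were tested. Where these tests used DMSO or combination libraries, those libraries had also taken part in the choice. Values in every library are given for FOS, EGR1, members called in a tested comparison and the 3 members furthest above and below DMSO in each strong treatment; from the other lists, the 3 furthest above and below in the lapatinib combination and those called with a single agent are named, except 1 gene that is not reported here. Alternatives were other scalings (DESeq2 size factors, library size, upper quartile, 13 mitochondrial mRNAs), other filters, DESeq2 1.42.0, fits of only the groups compared, a replicate block, and each library left out. Promoter windows came from the RefSeq starts and the GRCh38 sequence.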

Additional observations from a re-analysis of the deposited data

Results flagged for a closer look

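Single-agent effects on RHOB differed between the inhibitors: it was 34.9, 33.6 and 32.3 CPM with lapatinib and 65.0, 53.3 and 54.6 CPM with nilotinib, a log2 fold change of -0.78 ± 0.10 (SE) for lapatinib against nilotinib (edgeR adjusted p = 0.000432, lower in 3 of 3 libraries). With 0.1 µM THZ531 present, RHOB had means of 187 and 188 CPM. The effects of the combinations differed for DUSP1, which was higher with lapatinib than with nilotinib by 0.72 ± 0.08 (edgeR adjusted p = 9.17e-05), for ZFP36 by 0.54 ± 0.10 (edgeR adjusted p = 0.0115) and for BTG1 by 0.59 ± 0.13 (edgeR adjusted p = 0.0236), in each case with 3 of 3 libraries above those of the nilotinib combination. In the fit of only the groups compared, ZFP36 and BTG1 did not pass (edgeR adjusted p = 0.316 and 0.117). The libraries of both combinations had also taken part in the choice of genes, so the tests between the combinations are not separate from it.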

How the results depend on the processing

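DESeq2 raised the count of members called higher with nilotinib from 2 to 4, that called lower with lapatinib than nilotinib from 1 to 2, and that called higher in the lapatinib than the nilotinib combination from 3 to 7. Fits of only the groups compared, with fewer libraries, gave 1 for nilotinib and 1 between the combinations. Scaling to mitochondrial mRNAs gave 1 member higher at 0.1 µM THZ531, 0 with nilotinib and 1 between the combinations, and 12, 12 and 15 lower in the lapatinib combination, the nilotinib combination and 1 µM THZ531 against DMSO. Library size alone gave 8 and 13 lower in the latter 2, and upper-quartile scaling 2, 3 and 5 in the 3, where the median of all genes moved to 0.15, 0.13 and 0.19. The cause of these changes was not tested. Counting error limits the scarcest members most, such as IER3 with 23 to 39 counts in DMSO libraries.

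Directions turned with mitochondrial scaling in the lapatinib combination for KLF6 (-0.38), JUND (-0.09) and KLF2 (-0.41), in the nilotinib combination for ZFP36L2 (-0.28), BTG1 (-0.06), KLF6 (-0.16), DUSP1 (-0.41), DUSP2 (-0.06), SRF (-0.32) and KLF2 (-0.30), and at 1 µM THZ531 for DUSP1 (-0.05). With library size alone they turned for KLF6 (-0.02) and KLF2 (-0.06) in the lapatinib combination and for DUSP1 (-0.09) and SRF (-0.0016) in the nilotinib combination. In the other filters and with halved counts no count of members moved by over 1.5 times.

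Leaving out 1 library gave 4 to 7 members higher and 0 to 0 lower at 0.1 µM THZ531, 0 to 0 in both directions with lapatinib, 1 to 2 higher and 0 to 1 lower with nilotinib (1 lower without 1 µM THZ531 replicate 2), and 0 to 0 higher and 1 to 1 lower for lapatinib against nilotinib. Between the combinations it gave 1 to 8 higher and 0 to 0 lower. Against DMSO it gave 27 to 31 higher and 3 to 4 lower for the lapatinib combination, 24 to 29 and 3 to 5 for the nilotinib combination (3 lower without its replicate 1), and 22 to 24 and 6 to 10 for 1 µM THZ531. Over all contrasts, calls on the other primary response genes ran from 89 to 111 (99 with all libraries) and on the regulators from 58 to 69 (68). The sources do not say whether replicate numbers pair the libraries across groups, and the values were mixed. Libraries of the same number in different groups had a mean correlation of 0.178 (-0.86 to 0.928), against -0.081 for other numbers. Of 63 same-number pairs 37 had a correlation over 0.1, and 9 of 21 libraries were closest to their own number. With the replicate block, the pairing gave 4 members higher between the combinations and 26 rather than 24 higher in the lapatinib combination than at 1 µM THZ531, and the same counts elsewhere (6, 2 and 1 in the other tested calls).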
